A study of Mus musculus with 69 samples.

Results

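The 10 Wnt ligands Wnt2b, Wnt4, Wnt5a, Wnt5b, Wnt6, Wnt7b, Wnt8b, Wnt9b, Wnt10a and Wnt11 were followed through the nascent RNA of the mouse collecting duct. They are the rows of the count table that carry these symbols, 10 of its 24411 genes and 10 of the 19 rows named as Wnt ligands, and all 10 had enough counts to be tested. The mice (Hoxb7Cre;UPRTf/+ or Atp6b1v1Cre;UPRTf/+) carried 1 copy of Uprt, the uracil phosphoribosyltransferase of T. gondii, in the Rosa26 locus behind a floxed stop cassette, so that Cre opens the way for 4-thiouracil to enter new RNA. Hoxb7Cre opens the cassette in the collecting duct, and Atp6v1b1Cre (Atp6b1v1Cre in the labels) in intercalated cells and in the cells that share principal and intercalated features, with a few scattered interstitial cells. Every mouse, controls included, was given 4-thiouracil at 430 mg/kg, 4 hours ahead of dissection. Groups were uninjured controls, mice 24 hours after 10 minutes of clamping of both kidneys (ischemia), and mice kept from water and food for 72 hours (volume depletion). At 5.5 months of age, Hoxb7Cre pulldowns came from 4 male and 4 female controls, 4 males and 3 females after ischemia, and 3 males and 4 females after volume depletion. Atp6v1b1Cre pulldowns came from 4 and 4 controls, 3 and 3 after ischemia, and 4 and 3 after volume depletion. Further controls were 3 months old (2 female Hoxb7Cre, 3 male Atp6v1b1Cre), and 21 libraries of total kidney RNA of control mice of both genotypes (16 at 5.5 months and 5 at 3 months) completed the 69 libraries.

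Wnts are secreted lipid-modified glycoproteins. Porcn acylates them, Wls carries them to the cell surface, and on the receiving cell they bind frizzled receptors, either with the co-receptors Lrp5 and Lrp6, which lets beta-catenin reach TCF/LEF factors in the nucleus, or with Ror receptors, which signal without beta-catenin. In the developing kidney the ureteric bud, from which the collecting duct grows, makes Wnt9b, which induces nephrons in the surrounding mesenchyme, Wnt11, which marks the bud tips, and Wnt7b, which is needed for the medulla. Wnt4 drives the change from mesenchyme to epithelium.

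Both Wnt11 and Wnt8b rose after volume depletion in male Hoxb7Cre pulldowns, and their promoter sequences are printed for that reason. On GRCm38, Wnt11 lies on chromosome 7, from 98835112 to 98855195 on the plus strand, and Wnt8b on chromosome 19, from 44493472 to 44514273 on the plus strand. The 250 bases before a RefSeq start site of each (GRCm38.p6, both on the plus strand) are given 5′ to 3′. The capitals mark the 1 match of the searched motifs in each window.
Wnt11 (chr7:98834862-98835111): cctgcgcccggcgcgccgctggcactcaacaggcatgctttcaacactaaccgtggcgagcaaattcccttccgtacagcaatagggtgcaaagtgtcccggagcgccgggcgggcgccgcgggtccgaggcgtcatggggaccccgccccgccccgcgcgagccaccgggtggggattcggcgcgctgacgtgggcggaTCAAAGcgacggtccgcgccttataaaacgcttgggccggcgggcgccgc
Wnt8b (chr19:44493222-44493471): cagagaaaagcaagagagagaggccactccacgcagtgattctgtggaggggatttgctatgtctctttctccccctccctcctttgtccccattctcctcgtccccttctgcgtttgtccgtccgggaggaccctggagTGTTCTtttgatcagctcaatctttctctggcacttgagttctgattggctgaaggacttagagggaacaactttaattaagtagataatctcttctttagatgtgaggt
The Wnt11 window holds the TCF/LEF core CTTTGA on the opposite strand, and 13.83% of 32851 RefSeq promoters of the same length hold it on either strand. The Wnt8b window holds AGAACA, a part of the steroid receptor element and not the whole of it, on the opposite strand. It was found in 16.08% of promoters. Neither holds the FoxO element TGTTTAC, the NFAT element TGGAAA or the AP-1 element TGACTCA, which 3.17%, 18.58% and 4.46% of promoters hold. A second start site of Wnt11 (chr7:98838595-98838844) held none of the 5. GC made up 70.8% of the first Wnt11 window and 48.4% of that of Wnt8b, against a median of 52.4% over all promoters. The windows of Wnt2b, Wnt4, Wnt6 and Wnt9b held none of these motifs either, and the 3 windows of Wnt5b held from 1 to 3 matches.

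Some members share their locus with other genes. Wnt6 and Wnt10a are neighbours on chromosome 1, 6194 bases apart on the same strand. Genes on the opposite strand overlap Wnt5a (Gm2670), Wnt5b (Fbxl14), Wnt6 (Gm29539), Wnt7b (AU022754) and Wnt11 (the pseudogene Gm8398). No source used here says that the library preparation kept strand, so whether the reads of these genes were told apart is not known. No other annotated gene overlaps Wnt4, Wnt8b, Wnt9b or Wnt10a, and Wnt2b holds the sense intronic Gm43846.

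The libraries held from 12618062 to 30305464 counts (median 20868430). Levels are given in CPM, read counts divided by library size and scaled by TMM over the 69 libraries. Summed markers of principal cells, the water-transporting cells of the collecting duct, were at 2608 to 3322 CPM in male Hoxb7Cre controls against 607 to 861 CPM in male total kidney RNA, and those of intercalated cells at 670 to 895 CPM in male Atp6v1b1Cre controls against 259 to 316 CPM. RNA of other segments was not removed in full, since the proximal tubule markers had a median of 2381 CPM in male Hoxb7Cre controls (highest 2899 CPM) and were at 11170 to 14640 CPM in male total kidney RNA. In females the principal cell markers of Hoxb7Cre controls, at 1045 to 2345 CPM, overlapped total kidney RNA at 727 to 1102 CPM. Of 10 cell type lists, among them proximal tubule, stroma, urothelium and macrophages, none had a marker at 0 in every library. Among females after volume depletion, Hoxb7Cre replicates 1, 2 and 3 stood apart. Over the 2035 genes that rose in males their mean log2 differences from control females were -0.55, 0.08 and -0.36, against 1.03 in replicate 5. Whether these 3 mice were depleted as labelled cannot be told from the counts, so values of that female group, and differences between the sexes that rest on it, are those of libraries labelled volume depletion. Values without the 3 libraries are descriptions with no test, because the genes used to set them apart hold Wnt11, Wnt10a and Wnt8b. Ischemic Hoxb7Cre females also followed the males little. Over the 322 genes that rose after ischemia in males, their mean log2 differences from control females were 0.31, 0.32 and -0.25. Ischemic Atp6v1b1Cre females were at 0.88, 1.01 and 1.29 over the 242 genes that rose in males of their pool. Values of ischemic Hoxb7Cre females are thus those of libraries labelled ischemia.

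In uninjured kidneys Wnt7b and Wnt9b had the highest levels in the Hoxb7Cre pulldowns. The levels are of labelled RNA per kilobase of exon, which corrects for length, while uracil content and RNA turnover also set how much of a gene's RNA is captured and are not corrected for. On this scale Wnt7b had the highest median of the Hoxb7Cre pulldowns, at 7.17 (5.69 to 11.97) CPM per kilobase (lowest to highest of 10). Wnt9b followed at 3.99 (2.14 to 7.44) and Wnt5a, a ligand that signals through Ror receptors, at 2.94 (2.45 to 4.49). Then came Wnt4 at 2.20 (1.76 to 5.02), Wnt2b, a beta-catenin ligand known from stroma, at 1.76 (1.41 to 2.23), and Wnt5b, a close relative of Wnt5a, at 1.26 (0.683 to 1.58). Wnt10a, known from tooth and skin, was at 0.867 (0.236 to 1.53), Wnt8b, known from the forebrain, at 0.303 (0.118 to 0.461), Wnt11 at 0.235 (0.0585 to 0.741) and Wnt6, another ureteric bud ligand, at 0.137 (0.0341 to 0.274). Each neighbouring pair in this order overlapped, while Wnt7b did not overlap Wnt5a or any member below it. The order of Wnt9b and Wnt5a depended on sex. In the 6 females the median was 2.96 for Wnt9b and 3.19 for Wnt5a, and in the 4 males 5.60 and 2.68.

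In the Atp6v1b1Cre pool Wnt7b and Wnt5a shared the top, with medians of 3.17 (2.47 to 4.86) and 3.11 (2.07 to 4.69) CPM per kilobase. Wnt9b, Wnt2b and Wnt4 lay between 1.28 and 1.42 in their medians, and Wnt5b at 0.949. The 1 break between neighbours in this order fell between Wnt10a at 0.876 (0.590 to 1.56) and Wnt8b at 0.251 (0.0979 to 0.521), with Wnt11 (0.164) and Wnt6 (0.145) last. In total kidney RNA Wnt7b again had the highest median, 3.87, but Wnt5b came second at 2.23 and Wnt9b only seventh at 0.742, and all neighbours overlapped. Thus in each pool Wnt8b, Wnt11 and Wnt6 made up the lowest 3.

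**Figure D1:**
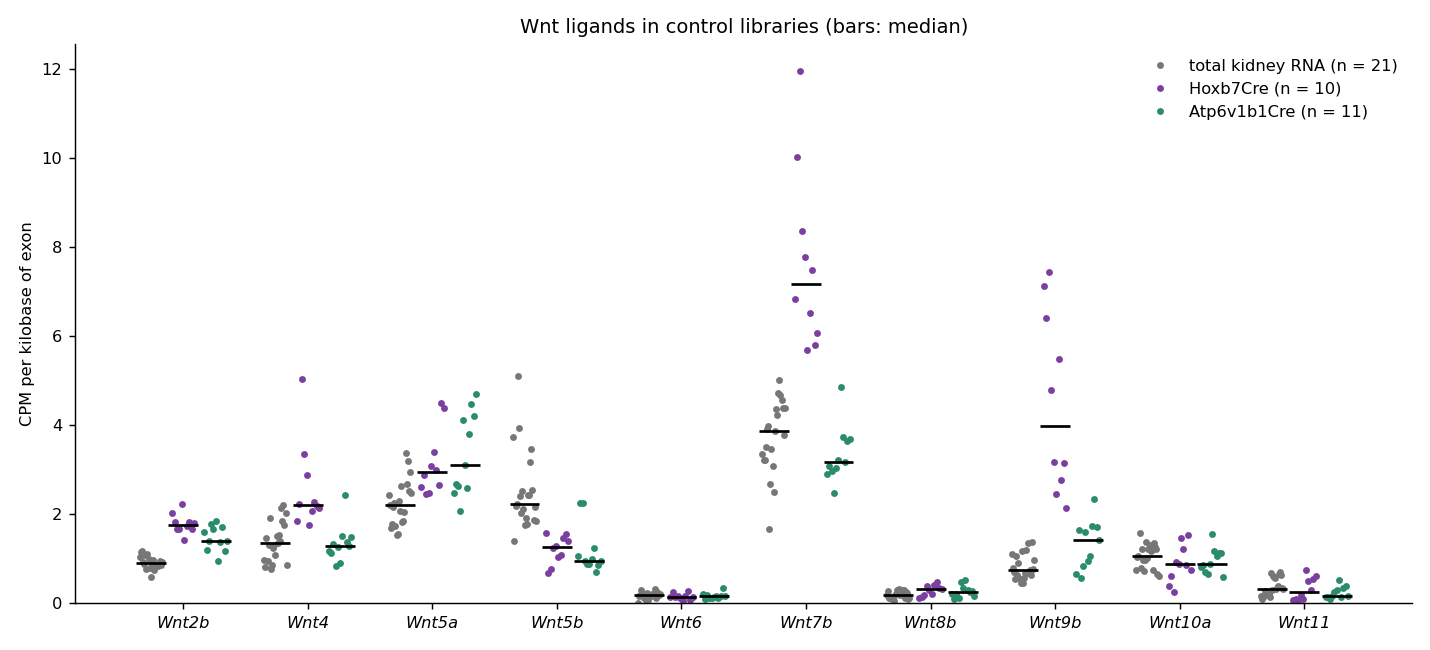
Levels of the 10 ligands in control libraries, in CPM per kilobase of exon on a linear axis from 0, with 1 point per library and a bar at the median of total kidney RNA (n = 21), Hoxb7Cre pulldowns (n = 10) and Atp6v1b1Cre pulldowns (n = 11). Wnt9b, Wnt7b and Wnt2b of the Hoxb7Cre pool lie above every total kidney library, and Wnt5b is higher in total kidney RNA.

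Pulldowns of uninjured mice were compared with total kidney RNA to ask which ligands stood higher or lower in them. The pulldowns hold RNA labelled over 4 hours and the total RNA is at steady state, so cell type and RNA turnover cannot be told apart in these differences. Across all genes the median log2 difference from total RNA was 0.11 in either pool, and the control pulldowns may come from the same mice as the total RNA. Of the 10 ligands, 3 were higher and 1 lower in Hoxb7Cre pulldowns, where 14.6% and 17.9% of all tested genes were called higher and lower (an adjusted p under 0.05 and a log2 difference of at least 1 in size). In bulk RNA, fewer cells of a type and less RNA per cell cannot be told apart. Wnt9b ranged from 9.64 to 33.6 CPM with a median of 18.01 in the pulldowns and from 2.06 to 6.23 CPM with a median of 3.35 in total RNA. Wnt7b ranged from 27.9 to 58.6 CPM with a median of 35.1 against 8.09 to 24.6 CPM with a median of 18.96, and Wnt2b from 5.91 to 9.37 CPM with a median of 7.39 against 2.42 to 4.90 CPM with a median of 3.75. None of these 3 pairs overlapped. The log2 differences and adjusted p-values (edgeR's quasi-likelihood test, adjusted after Benjamini and Hochberg) were 2.49 (standard error 0.20, adjusted p = 2.21e-15) for Wnt9b, 1.08 (standard error 0.12, adjusted p = 4.14e-11) for Wnt7b and 1.02 (standard error 0.09, adjusted p = 1.41e-13) for Wnt2b. Wnt5b, at 3.20 ± 0.825 CPM (SD, n = 10) against 6.69 ± 2.37 CPM (SD, n = 21), was lower, with a log2 difference of -1.09 (standard error 0.15, adjusted p = 1.30e-08) and overlapping groups. Wnt4, at 10.8 ± 4.13 CPM (SD, n = 10) against 5.84 ± 1.90 CPM (SD, n = 21), passed the p threshold at 0.93 (adjusted p = 2.65e-06) but not the fold threshold. These calls did not all hold within a sex. Among males alone, Wnt4 was called at 1.52 and Wnt11 at -1.47 (adjusted p = 0.0122), and among females alone Wnt7b fell below the fold threshold, at 0.64.

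In the Atp6v1b1Cre pool Wnt5b was the 1 member called, and it was lower, at 3.13 ± 1.45 CPM (SD, n = 11) and a log2 difference of -1.005 (standard error 0.14, adjusted p = 3.47e-08) from total RNA. There 11.3% of all genes were called higher and 16.4% lower. The call of Wnt5b was lost among females alone (-0.81) and in mice of 5.5 months alone (-0.98). Between the pulldowns, Wnt9b and Wnt7b were lower in the Atp6v1b1Cre pool, 2 of the 10 ligands where 4.11% of genes were called in either direction. Wnt9b was at 5.94 ± 2.48 CPM (SD, n = 11) there against 20.3 ± 9.11 CPM (SD, n = 10), a log2 difference of -1.79 (standard error 0.24, adjusted p = 1.93e-07). Wnt7b was at 16.4 ± 3.09 CPM (SD, n = 11) against 37.5 ± 9.86 CPM (SD, n = 10), a difference of -1.18 (standard error 0.14, adjusted p = 1.59e-08), and its groups did not overlap. Among females alone the difference of Wnt7b was -0.82. Between female and male controls edgeR and DESeq2 called 0 ligands with 5.03% of genes called by edgeR, 2 had an unadjusted p under 0.05, and Wnt5b was higher in females by 0.62 (adjusted p = 3.69e-05), under the fold threshold. Wnt11 was higher in females by 0.71 (adjusted p = 0.0539), not called.

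**Figure D2:**
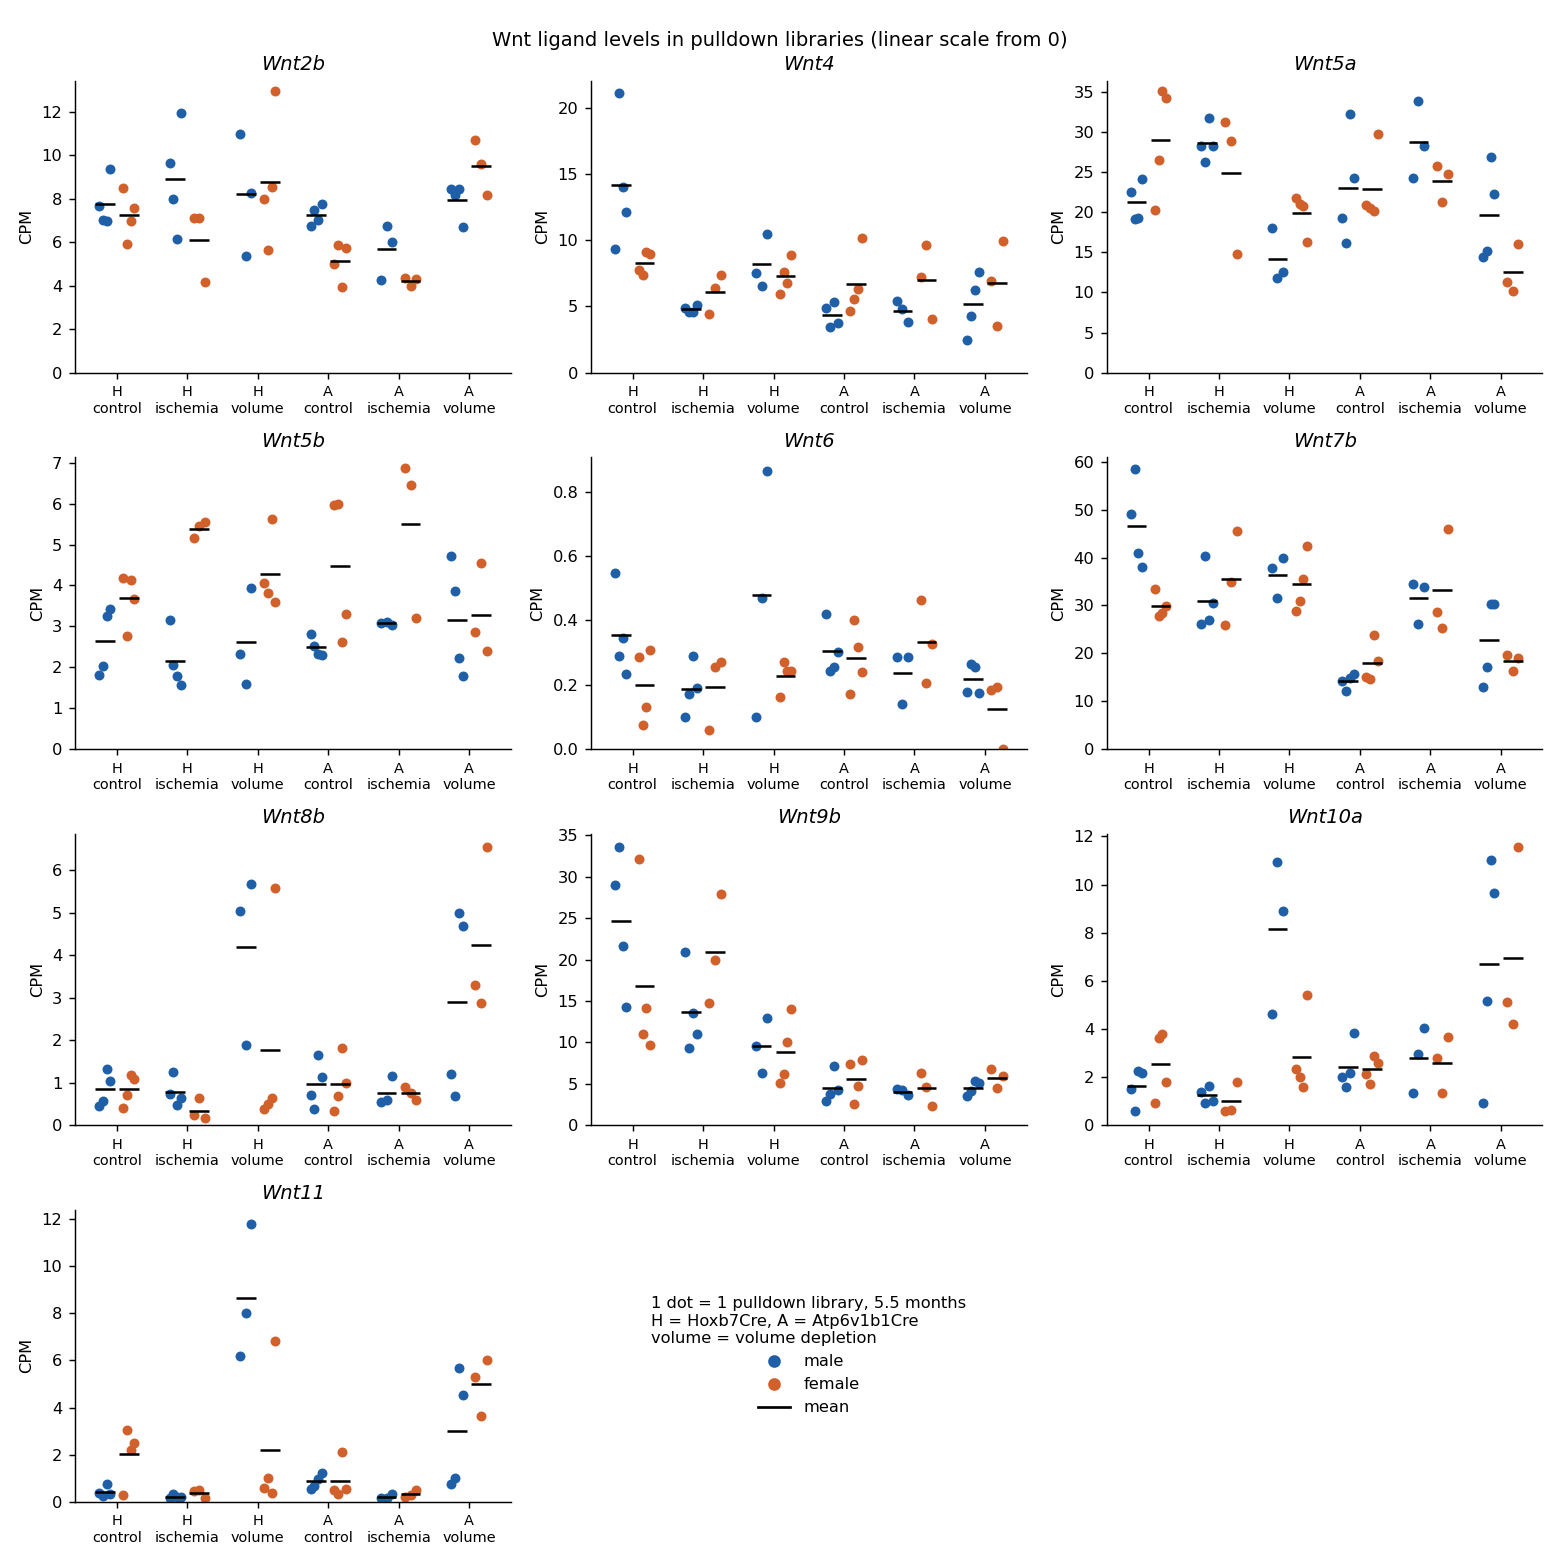
CPM of each ligand on a linear axis from 0 in every pulldown library of mice of 5.5 months, by Cre driver, condition and sex, with 1 point per library and a bar at the mean. Wnt11, Wnt8b and Wnt10a of the 3 male Hoxb7Cre libraries after volume depletion lie above all 4 controls, and Wnt4 of the 4 male Hoxb7Cre libraries after ischemia lies below all 4.

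Ischemia was compared with control among males of the Hoxb7Cre line, where a single fit held all 22 male pulldowns of 5.5 months. The ischemia and volume depletion comparisons of a driver share their controls. Wnt4 fell from a mean of 14.1 CPM to 4.79 CPM and was the 1 ligand called, where 1.52% of genes rose and 0.784% fell. In the 4 controls it was at 9.31, 21.1, 14.02 and 12.1 CPM and after ischemia at 4.90, 4.56, 4.60 and 5.08 CPM. Controls were spread widely, the ischemic libraries lay close together, and the groups did not overlap. The log2 change by edgeR came to -1.54 (standard error 0.27, adjusted p = 0.00234), and it stayed called in each of the 22 fits with a library left out (-1.70 to -1.29). Markers of principal cells were at 936 to 1176 CPM after ischemia against 2608 to 3322 CPM in controls, and 3 of the 5 were called lower. Stroma markers were at 105.1 to 258 CPM against 35.2 to 80.9 CPM, with 4 of 6 called higher. Fat markers (16.7 to 39.96 against 51.5 to 136 CPM) and urothelium markers (14.3 to 20.1 against 27.2 to 30.5 CPM) did not overlap either. Their part in the level of Wnt4 was not tested.

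The ureteric bud ligands Wnt9b and Wnt7b had lower means after ischemia but were not called. Wnt9b was at 20.9, 9.38, 13.6 and 10.97 CPM after ischemia against 28.95, 33.6, 21.7 and 14.3 CPM, with a log2 fold change of -0.83 (adjusted p = 0.0828). Wnt7b was at 26.1, 40.2, 26.97 and 30.4 CPM against 49.1, 58.6, 40.99 and 38.1 CPM, a change of -0.58 (adjusted p = 0.112), and in both genes the groups overlapped. The labels number the libraries, and all ischemic ones of this pool fall among 1 to 40. Of the controls, replicates 2 and 3 fall within those numbers too, with Wnt9b at 28.95 and 33.6 CPM. Control replicates 4 and 5, with Wnt9b at 21.7 and 14.3 CPM, do not. Within those numbers, and so against the controls of highest Wnt9b, Wnt9b was called (-1.20, adjusted p = 0.00753). There Wnt4 was at -1.67 (adjusted p = 0.00126). Wnt5a lay higher in every ischemic library, at 28.2, 26.2, 31.8 and 28.3 CPM against 22.6, 19.2, 19.3 and 24.1 CPM, but its change of 0.44 (adjusted p = 0.226) did not pass. Wnt11, with 3 to 8 counts per ischemic library, was at -0.90 (adjusted p = 0.509). The other 5 members had log2 fold changes from -0.89 (Wnt6) to 0.22 (Wnt2b). Over the 10 members the median was -0.48 against 0.00 over all genes.

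After volume depletion 4 ligands passed both thresholds in the same pool. Wnt11, Wnt10a and Wnt8b rose and Wnt9b fell, where 9.61% of genes rose and 6.81% fell. Wnt11, the ligand of the ureteric bud tips, was scarcely counted in controls and rose most. It was at 0.379, 0.242, 0.741 and 0.328 CPM in the 4 controls (9, 5, 15 and 7 counts) and at 6.19, 8.00 and 11.8 CPM in the 3 volume-depleted libraries (123, 221 and 287 counts). The lowest volume-depleted library lay above every control, and above every male library after ischemia. The means were 0.423 and 8.66 CPM and the fitted fold change 20.5, a log2 change of 4.35 (standard error 0.56, adjusted p = 4.03e-06).

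Wnt10a and Wnt8b showed smaller rises from low levels. Wnt10a was at 1.52, 0.581, 2.27 and 2.16 CPM in controls and 4.63, 10.9 and 8.88 CPM after volume depletion, a log2 fold change of 2.32 (standard error 0.55, adjusted p = 0.00205). Wnt8b was at 0.464, 0.581, 1.33 and 1.03 CPM in controls and 5.03, 1.88 and 5.68 CPM after volume depletion, a change of 2.30 (standard error 0.58, adjusted p = 0.00334). The groups of neither gene overlapped, although Wnt8b of replicate 6 was nearer to the highest control than to the other 2 volume-depleted libraries. Wnt6, the neighbour of Wnt10a, was counted 2, 13 and 21 times and changed by 0.45 (adjusted p = 0.511), not called.

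Wnt9b fell to 9.62, 6.26 and 12.9 CPM from 28.95, 33.6, 21.7 and 14.3 CPM, with no overlap. On the log2 scale this was -1.35 (standard error 0.32, adjusted p = 0.00182). Wnt4, at 7.55, 6.55 and 10.5 CPM, changed by -0.78 (adjusted p = 0.0390), and Wnt5a, at 18.02, 11.8 and 12.6 CPM and below every control, by -0.59 (adjusted p = 0.0456), both past the p threshold and under the fold threshold. Wnt7b, the ligand of highest level per kilobase in controls, was at 37.8, 31.5 and 39.8 CPM, overlapped the controls and changed by -0.35 (adjusted p = 0.258). Wnt2b changed by 0.08, and Wnt5b had a mean of 2.62 CPM against 2.63 CPM. Library numbers 1 to 40 hold every volume-depleted library of these males but, of their controls, replicates 2 and 3 alone. Wnt11 (4.78), Wnt8b (3.00), Wnt10a (2.95) and Wnt9b (-1.70) were called there too. The 4 calls were made in all 22 fits with a library left out, at 4.07 to 4.75 for Wnt11, 2.05 to 2.60 for Wnt10a, 2.02 to 2.66 for Wnt8b and -1.63 to -1.12 for Wnt9b. Principal cell markers were at 1050 to 1158 CPM, with 4 of 5 called lower, and stroma markers at 89.2 to 126 CPM, with 1 of 6 called higher. Without overlap, podocyte markers were at 233 to 283 CPM against 155 to 187 CPM in controls, endothelium markers at 188 to 245 against 89.8 to 170.1 CPM, thick ascending limb markers at 791 to 876 against 1387 to 2393 CPM, and urothelium markers at 14.3 to 18.8 against 27.2 to 30.5 CPM. The part of these cell types in the changes was not tested.

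Wnt7b, the collecting duct ligand needed for the medulla, rose after ischemia in the Atp6v1b1Cre pool. It was at 14.2, 12.1, 14.8 and 15.8 CPM in the 4 male controls and at 34.5, 26.2 and 33.9 CPM in the 3 males after ischemia. Every ischemic library lay above every control. This was a log2 change of 1.14 (standard error 0.23, adjusted p = 0.00475), and Wnt7b was the 1 ligand called where 1.14% of genes rose and 1.68% fell. It stayed called with any 1 library left out (1.07 to 1.27) and was just under the fold threshold over both sexes (0.99, adjusted p = 1.87e-04). It was at 1.19 within library numbers 1 to 40, called there. Within 65 to 85, where ischemic replicate 5 is the only ischemic library and its spread is taken from other groups, it was at 1.15. Principal cell markers overlapped, at 634 to 820 CPM after ischemia and 698 to 732 CPM in controls, as did stroma markers at 141 to 268 and 116 to 184 CPM and thick ascending limb markers at 1919 to 3295 and 1023 to 2053 CPM. Proximal tubule markers did not overlap, at 735 to 1040 CPM after ischemia and 1654 to 3287 CPM in controls, and their part in the rise was not tested.

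Wnt11 lay below every control after ischemia in this pool. It was counted 4, 3 and 8 times in the ischemic libraries (0.143, 0.139 and 0.328 CPM) and 13, 14, 23 and 37 times in controls (0.544, 0.678, 0.975 and 1.24 CPM). Its log2 fold change of -2.08 (standard error 0.69, adjusted p = 0.0630) was not called by edgeR in the 22 libraries. It was called by DESeq2 (-2.10, adjusted p = 0.0152), with the 3 controls of 3 months added (-2.26, adjusted p = 0.0229), with the library number series as a covariate (-1.85, adjusted p = 0.0129) and with the groups compared alone in the fit (-2.06, adjusted p = 0.0328). It was not called over both sexes or with the replicate number as a block. With a library left out it was called in 3 of 22 fits, each without a volume-depleted library. In females Wnt11 was at -1.42 (adjusted p = 0.413), not called. The other 8 members had log2 fold changes from -0.37 to 0.31, none called.

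After volume depletion in the Atp6v1b1Cre pool Wnt11 rose, the 1 called member, where 3.45% of genes rose and 1.7% fell. Control males were at 0.544, 0.678, 0.975 and 1.24 CPM and volume-depleted males at 0.740, 0.994, 5.69 and 4.52 CPM. Replicates 1 and 2 lay within the controls and replicates 6 and 7 far above them. The fitted log2 change was 1.74 (standard error 0.50, adjusted p = 0.0213). Without control replicate 6 or 9 or volume-depleted replicate 6 or 7 the call was lost (1.21 to 1.64, adjusted p from 0.0570 to 0.130).

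Wnt8b split these libraries as Wnt11 did, and Wnt10a set replicate 1 alone apart. Wnt10a was at 0.916, 5.17, 11.0 and 9.67 CPM after volume depletion against 2.01, 1.60, 2.16 and 3.85 CPM, a change of 1.45 (adjusted p = 0.0575), with replicate 1 below and the other 3 above every control. Wnt8b was at 1.20, 0.696, 4.99 and 4.69 CPM against 0.712, 0.387, 1.65 and 1.14 CPM, a change of 1.52 (adjusted p = 0.0634). Replicates 1 and 2 carry library numbers 17 and 18 in the labels, and replicates 6 and 7 numbers 68 and 69. Among libraries numbered 1 to 40, the log2 fold changes were 0.51 (adjusted p = 0.526) for Wnt11, 0.75 for Wnt10a and 0.75 for Wnt8b. Among those numbered 65 to 85 they were 2.19 (adjusted p = 2.06e-04), 1.76 and 1.81, and all 3 were called. What the numbers stand for is not given in the labels, and its part in the split was not tested.

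Wnt7b was at 13.0, 17.2, 30.4 and 30.3 CPM in the same 4 libraries, replicate 1 within the controls and the other 3 above them, and changed by 0.68 (adjusted p = 0.0378), under the fold threshold. The other 6 members had changes from -0.46 (Wnt6) to 0.38 (Wnt5b), none called. Intercalated cell markers were at 441 to 593 CPM against 670 to 895 CPM in controls, fat markers at 34.7 to 40.3 against 47.5 to 100.2 CPM, and stroma markers at 130 to 170 against 116 to 184 CPM. The first 2 lists did not overlap, and their part was not tested.

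The injuries were then compared directly within a driver. In Hoxb7Cre males, 4 ligands were higher and 1 lower after volume depletion than after ischemia, where 14.7% of genes were called in either direction. Wnt11 differed most, by 5.25 (standard error 0.60, adjusted p = 1.40e-06) on the log2 scale, followed by Wnt10a at 2.71 (standard error 0.56, adjusted p = 7.03e-04) and Wnt8b at 2.40 (standard error 0.58, adjusted p = 0.00266). None of these 3 overlapped between the injuries. Wnt6 was higher by 1.34 (standard error 0.51, adjusted p = 0.0487), from 2 to 6 counts after ischemia, and lost its call in 14 of 22 fits with a library left out (0.65, adjusted p = 0.439, without volume-depleted replicate 7). Wnt5a was lower after volume depletion, with a log2 difference of -1.03 (standard error 0.23, adjusted p = 0.00127), and without ischemic replicate 6 or volume-depleted replicate 6 or 7 it was at -0.98 to -0.91, under the fold threshold.

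In Atp6v1b1Cre males, Wnt11 and Wnt8b were higher after volume depletion than after ischemia, 2 of 10 where 11.6% of genes were called. Wnt11 differed by 3.81 (standard error 0.66, adjusted p = 2.01e-04), and its lowest volume-depleted library, at 0.740 CPM, lay above its highest ischemic library, at 0.328 CPM. Wnt8b differed by 1.90 (standard error 0.62, adjusted p = 0.0235) with overlapping groups, and was not called without ischemic replicate 1 or 4 or volume-depleted replicate 6 or 7 (1.49 to 1.75). Wnt10a, at 1.26 (adjusted p = 0.0921), was not called.

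The response of each ligand was also compared between the drivers, as the difference of log2 fold changes. After ischemia Wnt7b and Wnt4 differed, 2 of 10 where 3.49% of genes did. Wnt7b changed by -0.58 in Hoxb7Cre and 1.14 in Atp6v1b1Cre males, a difference of 1.72 (standard error 0.32, adjusted p = 0.00397). Wnt4 changed by -1.54 and 0.09, a difference of 1.64 (standard error 0.40, adjusted p = 0.0156), and this call was lost without ischemic Atp6v1b1Cre replicate 1 (1.56, adjusted p = 0.0528). For both ligands the controls of the drivers did not overlap, at 38.05 to 58.6 against 12.1 to 15.8 CPM for Wnt7b and 9.31 to 21.1 against 3.44 to 5.30 CPM for Wnt4, and the ischemic libraries overlapped, at 26.1 to 40.2 against 26.2 to 34.5 CPM and 4.56 to 5.08 against 3.82 to 5.41 CPM.

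After volume depletion Wnt11 differed between the drivers, 1 of 10 where 2.93% of genes did. Its rise was smaller in the Atp6v1b1Cre pool, with a difference of -2.62 (standard error 0.75, adjusted p = 0.0474) on the log2 scale. This call held in 7 of 22 fits with a library left out, was -3.72 (adjusted p = 1.20e-04) with the library number series as a covariate, and over both sexes, with the 3 female libraries that stood apart, the difference was -0.04. Wnt9b, which fell in Hoxb7Cre males and changed by 0.01 in Atp6v1b1Cre males, had a difference of 1.37 (adjusted p = 0.0742), not called.

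**Figure D3:**
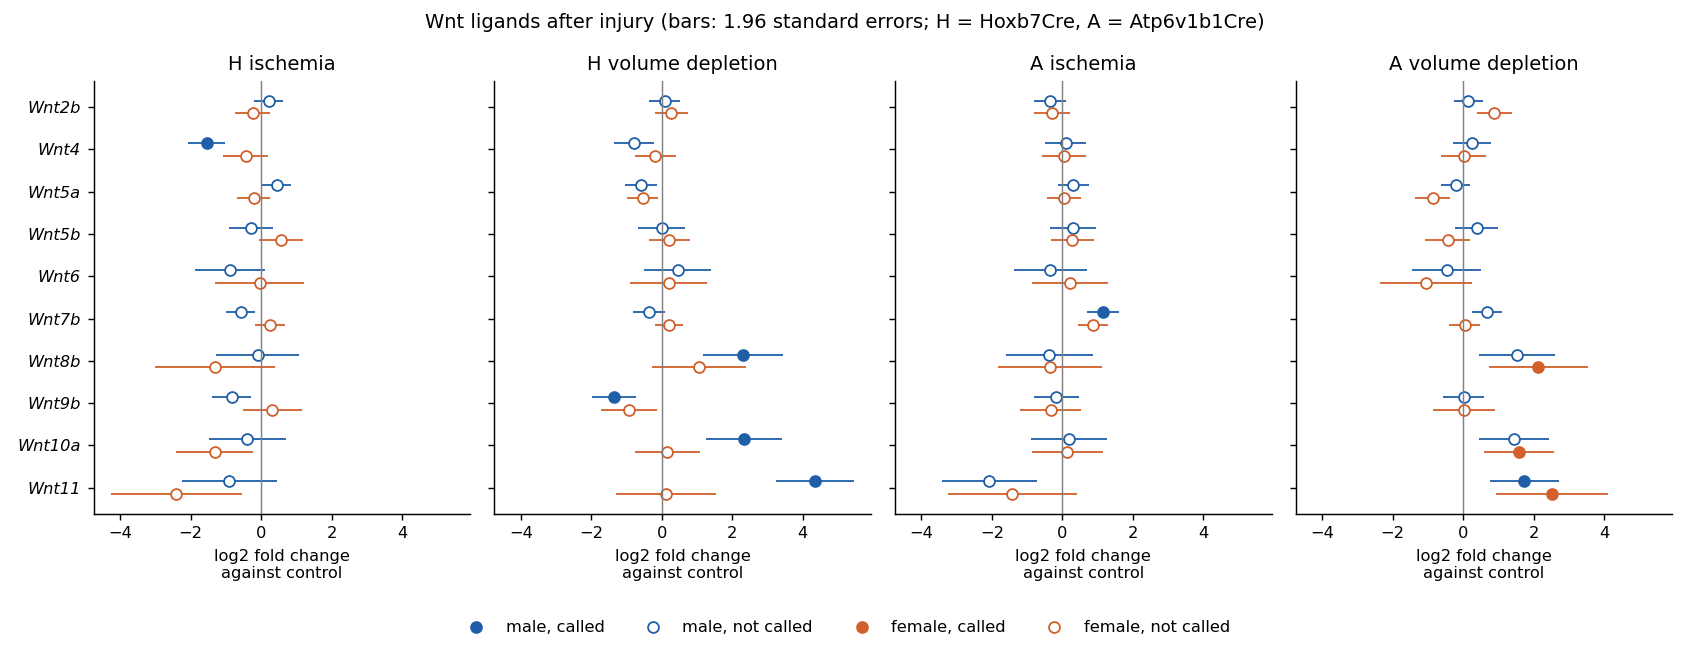
Log2 fold change of each ligand against control, with bars of the number of standard errors given in its title, in males (blue) and females (orange) for each driver and injury, filled where called. Wnt11 of Hoxb7Cre males after volume depletion, at 4.35, is the farthest point from 0, while the female point for the same comparison lies near 0.

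Females were fitted apart, in 21 pulldowns. After volume depletion in Atp6v1b1Cre females, the 3 ligands that rose in Hoxb7Cre males were higher. Wnt11 was at 0.511, 0.329, 2.13 and 0.527 CPM in control females and 5.31, 3.64 and 6.01 CPM in volume-depleted females, with a log2 fold change of 2.52 (standard error 0.81, adjusted p = 0.0353). Wnt8b was at 0.341, 0.694, 1.81 and 1.01 CPM and 3.30, 2.88 and 6.53 CPM, a change of 2.14 (standard error 0.71, adjusted p = 0.0416). Wnt10a was at 2.13, 1.72, 2.90 and 2.59 CPM and 5.13, 4.22 and 11.6 CPM, a change of 1.58 (standard error 0.50, adjusted p = 0.0349). None of the 3 overlapped, and they were the only members called where 9.89% of genes were called in either direction. With 1 library left out, Wnt11 and Wnt8b were called in 15 and Wnt10a in 16 of 21 fits. Wnt11 and Wnt8b lost the call without any 1 of the volume-depleted libraries. Wnt10a lost it without volume-depleted replicate 3 or 5 (1.005, adjusted p = 0.221, without replicate 5). All 3 lost it without control replicate 7, 8 or 13. Wnt2b was higher by 0.89 (adjusted p = 0.0210) and Wnt5a lower, at a log2 fold change of -0.87 (adjusted p = 0.0223), both without overlap and under the fold threshold. Summed stroma markers were at 18.9 to 141 CPM in these 3 libraries against 108.3 to 173 CPM in controls. Intercalated cell markers (444 to 621 against 820 to 1212 CPM), thick ascending limb markers (762 to 1293 against 1295 to 2188 CPM) and macrophage markers (60.8 to 98.01 against 103.8 to 152 CPM) were lower without overlap, and the part of these lists was not tested.

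In the other 3 female comparisons edgeR called 0 ligands. After ischemia in Atp6v1b1Cre females, where 1.15% of genes were called and 1 member had an unadjusted p under 0.05, Wnt7b was at 28.5, 25.3 and 45.9 CPM against 15.04, 14.5, 23.8 and 18.3 CPM. As in males, each ischemic library lay above each control. The change of 0.87 (standard error 0.22, adjusted p = 0.0383) was under the fold threshold. After ischemia in Hoxb7Cre females, where 2.08% of genes were called and 2 members had an unadjusted p under 0.05, Wnt4 was at 4.45, 6.40 and 7.40 CPM against 7.76, 7.36, 9.13 and 8.95 CPM, with overlap and a change of -0.44 (adjusted p = 0.434). Wnt11 was at -2.40 (adjusted p = 0.133), and DESeq2 called it (-2.43, adjusted p = 0.0422), the 1 member it called. The 2 members with an unadjusted p under 0.05 were Wnt11 and Wnt10a (-1.32, adjusted p = 0.157). As given above, these ischemic Hoxb7Cre libraries moved little with the genes called in males.

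After volume depletion in Hoxb7Cre females 0.0992% of genes were called, and 2 members had an unadjusted p under 0.05. These were Wnt9b (-0.92, adjusted p = 0.581) and Wnt5a (-0.54, adjusted p = 0.552), both with overlapping groups. Both were also lower in Hoxb7Cre males (-1.35 and -0.59). Wnt11 was at 0.589, 0.989, 0.362 and 6.84 CPM in replicates 1, 2, 3 and 5, against 0.288, 3.07, 2.20 and 2.51 CPM in controls. Replicates 1 to 3 lay within the controls and replicate 5 above them. Wnt8b was at 0.375, 0.495, 0.643 and 5.58 CPM against 0.411, 0.710, 1.19 and 1.08 CPM in controls, and Wnt10a at 2.36, 2.02, 1.61 and 5.43 CPM against 0.945, 3.63, 3.78 and 1.81 CPM. In both, replicate 5 alone lay above the controls. The log2 fold changes were 0.12 (adjusted p = 1.00) for Wnt11, 1.06 (adjusted p = 0.768) for Wnt8b and 0.16 (adjusted p = 0.989) for Wnt10a. Without replicates 1 to 3, which leaves 1 library that is taken to vary like the others, Wnt11 was at 1.73, Wnt8b at 2.69 and Wnt10a at 1.07, values whose direction follows from the choice of the libraries left out. DESeq2 called 0 members with all libraries in the fit.

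The difference between the sexes was tested over 43 pulldowns. After volume depletion in the Hoxb7Cre pool, the log2 change of Wnt11 in females differed from that in males by -4.25 (standard error 1.00, adjusted p = 0.00551) and that of Wnt10a by -2.17 (standard error 0.77, adjusted p = 0.0477), 2 of 10 where 10.8% of genes differed. Without the female replicates 1 to 3 that stood apart, the differences were -2.59 for Wnt11 and -1.23 for Wnt10a, which are given with no test since that choice by itself makes them smaller. In that pool control Wnt11 was at 0.288 to 3.07 CPM (mean 2.01) in females and 0.242 to 0.741 CPM (mean 0.423) in males. After volume depletion female replicate 5 was at 6.84 CPM and males at 6.19 to 11.8 CPM. The part of the control levels in these differences was not tested. After ischemia in that pool edgeR called 0 ligands where 6.98% of genes differed, 4 had an unadjusted p under 0.05, and the lowest adjusted p was that of Wnt7b, at 0.82 (adjusted p = 0.0856). DESeq2 called 0 there too. This comparison rests on ischemic Hoxb7Cre females, which moved little with the genes called in males. In the Atp6v1b1Cre pool edgeR and DESeq2 called 0 ligands, and edgeR 0% of all genes, after either injury, with 0 members after ischemia and 1 after volume depletion at an unadjusted p under 0.05.

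The genes whose levels followed each ligand most closely were taken over the 48 pulldowns, by Pearson's r of log2 CPM among 15130 genes. These are descriptions, since libraries share condition, driver and sex. Wnt11 was nearest to Gadd45b (r = 0.942) and Fam222a (0.932), Wnt8b to Lrrc8e (0.861), Ppp2r3d (0.859) and U2af1 (0.851), and Wnt10a to Znhit3 (0.869), Eif1 (0.861) and Mcrs1 (0.859). Wnt9b was nearest to Elf5 (0.838), Nyap1 (0.817) and Fxyd4 (0.808), and Wnt4 to Tmem30b (0.823), Tjp3 (0.745) and Aqp3 (0.740), a water channel of principal cells. Wnt7b was nearest to Fam174b (0.804), Cdkn2b (0.803) and Mapk11 (0.792). Wnt5a was nearest to Zfp30 (0.785), Ddhd1 (0.782) and Smc4 (0.767), Wnt2b to Tnrc6b (0.795), Son (0.784) and Dnmt3a (0.765), and Wnt5b to Kynu (0.765), Acot7 (0.718) and Ugt2b34 (0.717). Among the ligands, Wnt8b with Wnt11 (0.812), Wnt10a with Wnt11 (0.764) and Wnt8b with Wnt10a (0.729) formed 1 set, and Wnt4 with Wnt9b (0.587), Wnt7b with Wnt9b (0.568) and Wnt4 with Wnt7b (0.565) another. Wnt5a and Wnt11 had the lowest r, -0.403. Wnt6 averaged 6.63 counts, too few for this ranking.

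**Figure D4:**
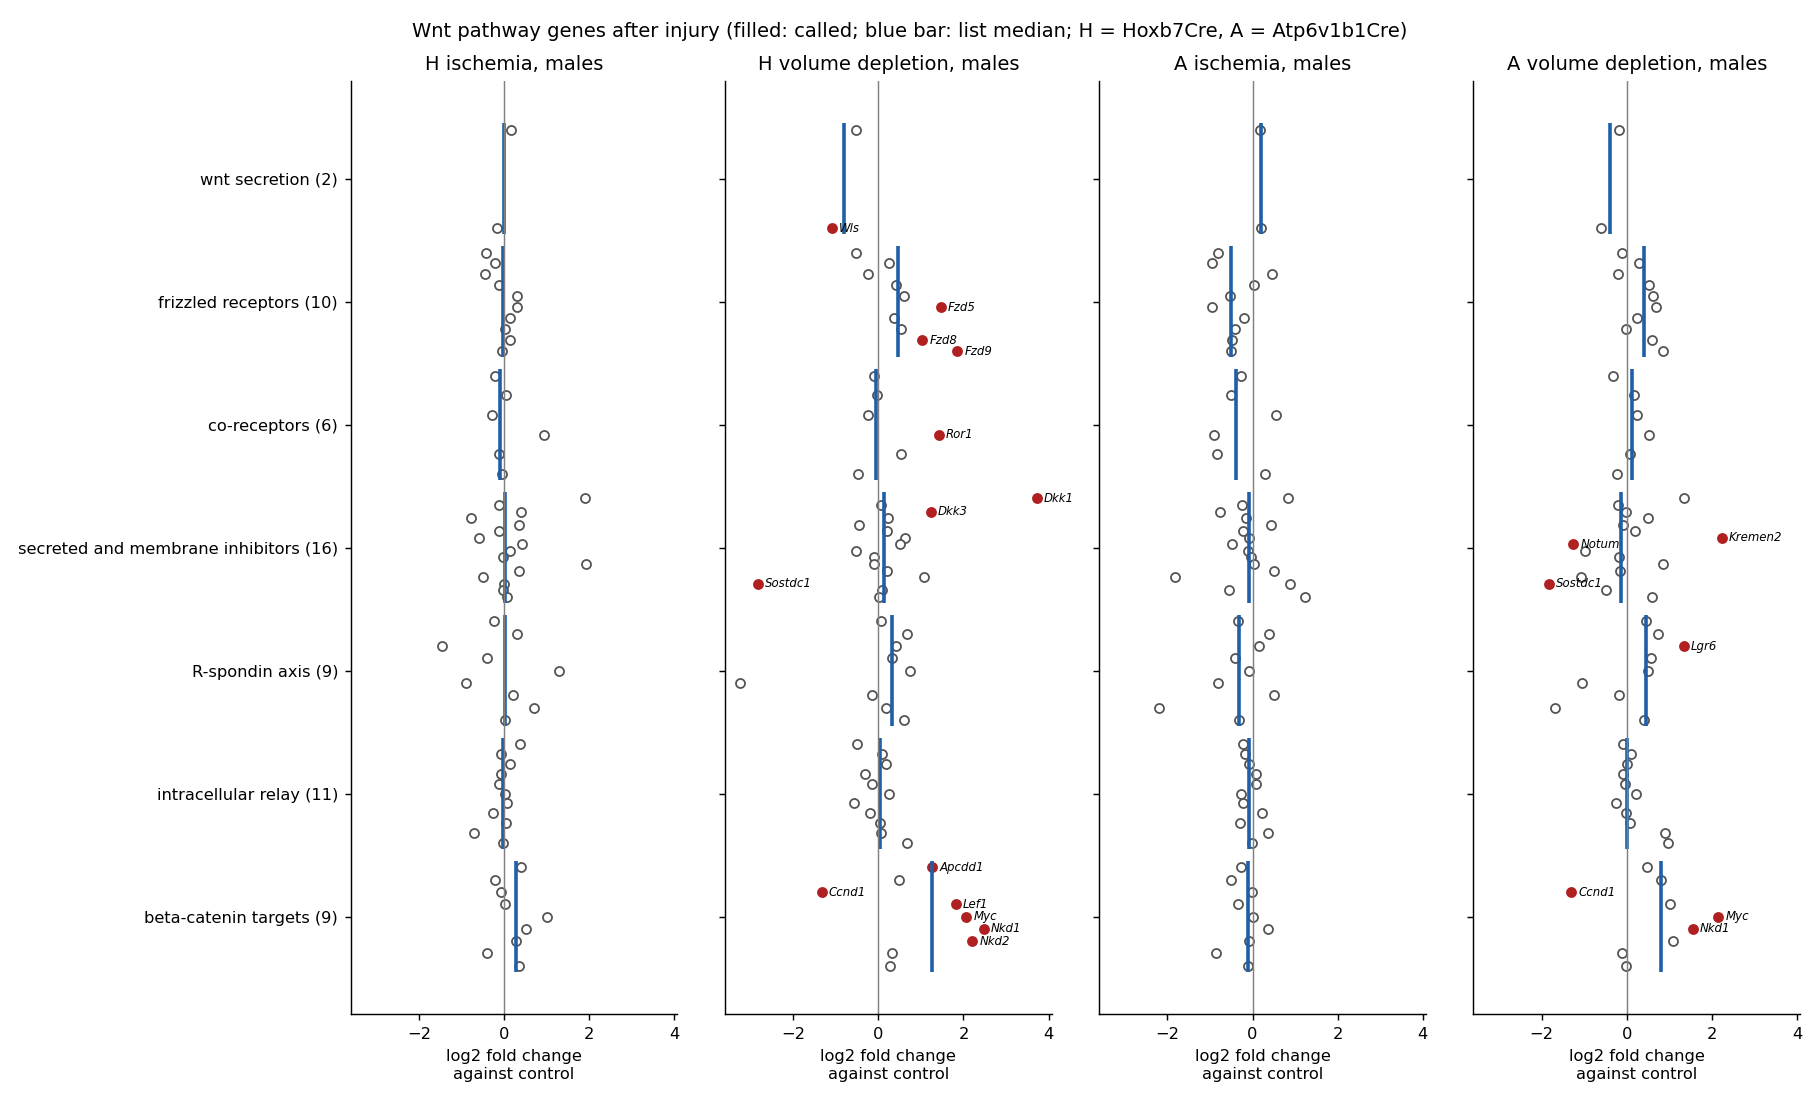
Log2 fold change against control in males for the genes of 7 Wnt pathway lists, by driver (H, Hoxb7Cre; A, Atp6v1b1Cre) and injury, with 1 point per gene, filled and named where called, and a blue bar at the list median. Calls appear after volume depletion only, with 5 of 9 beta-catenin targets higher in Hoxb7Cre. Of all genes 9.61% rose and 6.81% fell in Hoxb7Cre after volume depletion, against 1.52% and 0.784% after ischemia.

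The machinery that makes, receives and answers Wnts was read from 7 lists of genes, by counts and medians, beside a median of 0.00 over all genes in each of the male comparisons. After ischemia edgeR called 0 genes of these lists in males of either driver. Few genes of any kind were called there, 1.52% higher and 0.784% lower in Hoxb7Cre and 1.14% and 1.68% in Atp6v1b1Cre. Of the secretion genes, Wls fell in Hoxb7Cre males after volume depletion, from 184, 193, 149 and 163 CPM to 88.4, 76.7 and 75.9 CPM, with no overlap and a log2 fold change of -1.09 (standard error 0.17, adjusted p = 3.47e-05). Porcn changed by -0.52 (adjusted p = 0.0496). In Atp6v1b1Cre males Wls changed by -0.60 (adjusted p = 0.0120), under the fold threshold.

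Of 10 frizzled receptors, 3 rose in Hoxb7Cre males after volume depletion, with a median of 0.47, where 9.61% of all genes rose and 6.81% fell. Fzd9 changed by 1.86, Fzd5 by 1.47 and Fzd8 by 1.04. Of 6 co-receptors Ror1, the receptor of Wnt5a, rose by 1.42 (adjusted p = 8.72e-05), while Lrp6 changed by -0.03 (adjusted p = 0.943). In Atp6v1b1Cre males 0 of 10 frizzled receptors were called by edgeR (median 0.41), where 3.45% of all genes rose and 1.7% fell.

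Of 16 secreted or membrane inhibitors 2 rose and 1 fell in Hoxb7Cre males after volume depletion, a count near the 9.61% and 6.81% of all genes. Sostdc1, which binds the Lrp co-receptors, went from 73.99, 78.7, 53.7 and 56.1 CPM to 10.3, 8.21 and 9.13 CPM, a change of -2.83 (standard error 0.24, adjusted p = 3.51e-08). Every volume-depleted library was far below every control. Dkk1, another antagonist of the Lrp co-receptors, had 0 or 1 count in each control and 5, 11 and 11 counts after volume depletion, so that the size of its rise is uncertain, and Dkk3 rose by 1.24. Among Atp6v1b1Cre males 1 of the 16 rose and 2 fell, where 3.45% of genes rose and 1.7% fell. Sostdc1 fell by 1.83 on the log2 scale and Notum, which removes the lipid from Wnts, by 1.26, and Kremen2, a partner of Dkk1, rose by 2.23. Of these 3 genes Notum alone passed the test of a difference between the drivers, at -1.76 (adjusted p = 0.00739). Of 9 genes of the R-spondin axis, which sets how many frizzled receptors stay at the surface, Lgr6 was the 1 called, at 1.34 (adjusted p = 0.0264) in the Atp6v1b1Cre pool. Of 11 intracellular relay genes 0 were called after either injury, where at most 9.61% of all genes rose and 6.81% fell.

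Of 9 targets of beta-catenin 5 rose and 1 fell in Hoxb7Cre males after volume depletion, against 9.61% and 6.81% of all genes, with a median of 1.27. Nkd1, a feedback inhibitor that is itself a target, went from 1.43, 1.31, 1.33 and 1.41 CPM to 7.50, 8.79 and 6.62 CPM, a change of 2.48 (standard error 0.34, adjusted p = 8.92e-06). Its relative Nkd2 rose by 2.21 and the growth regulator Myc by 2.07. Lef1 (1.82) and Apcdd1 (1.27) also rose and Ccnd1 fell (-1.33), these 3 being named after their values were seen. Axin2, a widely used readout of the pathway, was at 8.11, 7.38 and 5.76 CPM against 5.48, 4.94, 5.93 and 3.94 CPM and changed by 0.49 (adjusted p = 0.176), not called. Among Atp6v1b1Cre males 2 of 9 targets rose against 3.45% of all genes, Myc (2.15) and Nkd1 (1.54), and Ccnd1 fell (-1.31), with a median of 0.79 and Axin2 at 0.79 (adjusted p = 0.0360). As with Wnt11, replicates 6 and 7 held the highest values of Nkd1 (4.69, 5.47, 12.9 and 10.6 CPM in the 4 libraries) and Myc (23.99, 33.7, 84.7 and 117 CPM).

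In control kidneys 8 of 16 inhibitors were lower than in total RNA in each pool, where 17.9% (Hoxb7Cre) and 16.4% (Atp6v1b1Cre) of all genes were, with medians of -1.33 for Hoxb7Cre and -1.001 for Atp6v1b1Cre. Dkk4 was higher in the Hoxb7Cre pool alone. Wls was lower, with log2 differences of -1.07 (adjusted p = 4.03e-15) and -1.05 (adjusted p = 1.93e-15), and Lrp6 higher by 1.04 (adjusted p = 1.67e-16) and 0.94 (adjusted p = 2.01e-15), the latter under the fold threshold. Porcn was at -0.86 and -0.77. Of the frizzled receptors 3 of 10 were higher in the Hoxb7Cre and 4 of 10 in the Atp6v1b1Cre pool, against 14.6% and 11.3% of all genes.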

How the data were processed

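Mouse kidney RNA was sequenced from 48 pulldowns of biotinylated nascent RNA and 21 samples of total kidney RNA. The authors deposited raw read counts per gene symbol, not normalized. Per the labels and the methods, bases were called with CASAVA 1.8.2, reads trimmed with Trimmomatic 0.36, aligned to mm10 with STAR 2.5.3a and counted with HTSeq 0.6.1p2, whose default drops reads that align to more than 1 place. Library totals ranged from 12618062 to 30305464 counts.

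Of 24411 genes the 21175 that reached 2 counts in total were tested by edgeR 4.0.16 in R 4.3.3 (limma 3.58.1, TMM, quasi-likelihood test, Benjamini-Hochberg adjustment), and with DESeq2 1.42.0 as an alternative. Calls needed a log2 fold change of 1 or more in either direction beside an adjusted p under 0.05. Injury was fitted in 22 male pulldowns of 5.5 months, and again in 21 female ones, differences between sexes in 43 pulldowns, and pools in 42 control libraries with sex as a covariate. Control pulldowns and total RNA equal each other in number by genotype, sex and age and may share mice, and the fit took them as independent. The labels do not say which mice the libraries came from, so p-values measure the spread between these samples. No pair of libraries within a group agreed within counting noise (181 pairs, lowest chi-square per degree of freedom 10.2). The code was tested on simulated data. Figures were drawn with matplotlib 3.10.9.

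The members, the pathway and marker lists and the tests were chosen with earlier results of these data known. All 10 members were tested in every comparison, but not all of them are named with values in each. Of the pathway lists Axin2, Porcn, Wls and Lrp6 were named, and for each male injury comparison up to 3 called genes per list with the largest changes. For each member the 3 genes of highest Pearson r over the 48 pulldowns were named, of which 1 is not reported here. Positions and overlaps came from GENCODE M21 and promoters from RefSeq GRCm38.p6, where 7 of the 10 members matched. Alternatives were DESeq2, DESeq2's size factors, other filters, no fold change threshold, 25 males, both sexes, controls of 1 sex or of 5.5 months, controls of 3 months added, the library number series as a covariate, the replicate number as a block, only the groups compared and each library left out in turn. Chosen after seeing the data were the fits within library number series and those without 3 female libraries.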

Additional observations from a re-analysis of the deposited data

Results flagged for a closer look

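Of 70 groups of 4 to 10 libraries of 1 ligand, 1 sex and 1 condition, 6 held a library far from the others. Chance gives about 1 in 20 for a single group. The 10 ligands were measured in the same libraries, so the groups are not independent and the 6 cannot be set against that rate. In volume-depleted Hoxb7Cre females, replicate 5 held 6.84 CPM of Wnt11 (others 0.362 to 0.989), 5.58 CPM of Wnt8b (others 0.375 to 0.643) and 16.3 CPM of Wnt5a (others 20.8 to 21.7). This is the 1 library of its group that moved with the genes called in males. In control Atp6v1b1Cre females, replicate 12 held 2.13 CPM of Wnt11 (others 0.329 to 0.527) and replicate 13 held 29.8 CPM of Wnt5a (others 20.2 to 21.0). In volume-depleted Atp6v1b1Cre males, replicate 7 held 6.72 CPM of Wnt2b (others 8.18 to 8.44).

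Responses differed between groups for 4 ligands, by the test of the difference itself. Between the drivers the log2 response to ischemia differed by 1.64 for Wnt4 and 1.72 for Wnt7b, and that to volume depletion by -2.62 for Wnt11 (Atp6v1b1Cre minus Hoxb7Cre, males). Of 22 fits with a library left out, Wnt7b was called in 22, Wnt4 in 21 and Wnt11 in 7. These differences between drivers were not called with the replicate number as a block, and that of Wnt11 was also not called over both sexes. Between the sexes the response to volume depletion in the Hoxb7Cre pool differed by -4.25 for Wnt11 and -2.17 for Wnt10a (females minus males), with the 3 female libraries that stood apart included, whose label of volume depletion cannot be checked from the counts.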

How the results depend on the processing

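Of 1324 values of members under alternatives other than leaving out a library, 1265 kept their side of the thresholds, 29 lost and 30 gained a call, and 0 called values reversed. Of 2600 values with 1 library left out, 2521 kept their side, 58 lost and 21 gained a call. The causes were not tested. The 4 members called after volume depletion in Hoxb7Cre males were 4 under DESeq2, both other filters, both sexes and the library number series.

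Numbers of members called moved by over 1.5 times as follows. After ischemia in Hoxb7Cre males, 1 became 2 in library numbers 1 to 40 (1 to 2 with a library left out). After ischemia in Atp6v1b1Cre males, 1 became 2 under DESeq2, with 25 males, with the library number series, with only the groups compared and in library numbers 1 to 40, and 0 over both sexes (1 to 2 with a library left out). After volume depletion in Atp6v1b1Cre males, 1 became 2 with no fold threshold, 3 under DESeq2, with 25 males, over both sexes, with the library number series and in library numbers 65 to 85, and 0 with only the groups compared and in library numbers 1 to 40 (0 to 3 with a library left out). For volume depletion against ischemia, 5 became 3 in Hoxb7Cre under DESeq2, filterByExpr and both sexes (3 to 5 with a library left out), and 2 became 1 in Atp6v1b1Cre with only the groups compared (1 to 3 with a library left out). For the difference between drivers, 2 became 1 after ischemia over both sexes (1 to 2 with a library left out), and 1 became 3 after volume depletion under DESeq2 and the library number series, and 0 without a filter, over both sexes and with only the groups compared (0 to 2 with a library left out).

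Among females, 0 became 1 after ischemia in Hoxb7Cre under DESeq2 (0 to 1 with a library left out), and 1 after volume depletion in Hoxb7Cre without replicates 1, 2 and 3, which were chosen by genes that include Wnt11, Wnt10a and Wnt8b, so that this count is no test. After ischemia in Atp6v1b1Cre females the range with a library left out was 0 to 1, and after volume depletion 0 to 3, from 3. The 2 members that differed between the sexes after volume depletion in Hoxb7Cre became 0 without those replicates, with the same limit. In controls, dropping the fold threshold gave 7 instead of 4 (Hoxb7Cre against total), 5 instead of 1 (Atp6v1b1Cre against total), 4 instead of 2 (between the pulldowns) and 1 instead of 0 (between the sexes). Atp6v1b1Cre against total gave 0 in females only and in mice of 5.5 months only, and the pulldowns differed in 1 member in females only.

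Whether replicate numbers pair the libraries cannot be told from the few male pairs that share a number. Deviations of injured and control libraries with the same number had mean correlations of -0.178 (2 pairs), -0.0813 (1 pair) and -0.419 (1 pair). Pairs with unlike numbers reached from -0.439 to 0.457 in volume-depleted against control Atp6v1b1Cre. Ischemic and control Atp6v1b1Cre males share no number. When the replicate number entered as a block, the males gave 1 and 4 members called for Hoxb7Cre after ischemia and volume depletion, 0 and 2 for Atp6v1b1Cre, and 0 for either difference between drivers. Wnt6 had 0 to 21 counts per library, and Wnt11 and Wnt8b had few counts in controls, so the size of their changes is imprecise.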
